A study of Mus musculus with 9 samples.

Results

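The Krüppel-like factors (KLF) described here are 8 genes, *Klf2*, *Klf3*, *Klf4*, *Klf6*, *Klf7*, *Klf10*, *Klf11* and *Klf13*, taken by their symbols from a table of 21883 genes. They were measured in invariant natural killer T (iNKT) cells, T cells with an almost fixed T cell receptor that recognises lipids on CD1d. RNA came from thymic iNKT cells of C57BL/6 mice, with 3 libraries per group and 9 in all, and the groups were stage 2 and stage 3 cells of WT mice and stage 2 cells of *Med23*-deficient mice, sorted as CD24-low, CD1d tetramer-positive cells and staged by CD44 and NK1.1. Stage 2 cells carry CD44 without NK1.1, and stage 3 cells carry both. The WT mice were 6 weeks old, and the labels give no age for the *Med23*-deficient mice. Deletion of *Med23*, which encodes a subunit of the Mediator complex between transcription factors and RNA polymerase II, was by Cre from *Cd4* regulatory sequences on floxed alleles (*Med23* fl/fl), so the gene was lost in all cells that pass through the CD4+CD8+ double-positive stage and not in iNKT cells alone. The methods of the study speak of independent experiments, but the labels do not say whether the 3 replicates of a group were separate mice or pools, so that p-values measure the spread between these samples only. All values are FPKM, fragments scaled by the length of the gene's transcripts and the size of the library, and allow levels of different genes to be compared per length.

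KLF proteins bind GC-rich and CACCC sequences through a block of C2H2 zinc fingers near the C-terminus, while the rest of each protein recruits activators or repressors. In T cells KLF2 holds naive cells in a resting, migrating state and drives the receptors for exit from the thymus, and loss of KLF2 is known to change neighbouring thymocytes through IL-4 made by PLZF-expressing cells, among them iNKT cells. KLF3 is a repressor that binds CtBP, and KLF10 and KLF11 are TGF-beta-induced repressors. KLF13 is known for binding the *Ccl5* promoter, and KLF4, KLF6 and KLF7 are linked to growth arrest, stress responses and cell differentiation.

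The coding bases of the zinc finger block show what the 8 genes share. The following 27 bases of each transcript, from GENCODE vM21 on GRCm38, run from the end of the second zinc finger across the linker into the third, with capitals at the 10 bases that are the same in all 8 genes.

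Klf2: CAcACaGGtcacagacccTTtcagTGc
Klf4: CAcACaGGgcaccggcccTTtcagTGc
Klf6: CAtACcGGtgccaagcctTTtaaaTGc
Klf7: CAcACaGGtgcaaagcccTTtaagTGt
Klf3: CAcACtGGgatcaaacctTTccagTGt
Klf13: CAcACgGGcgagaagaagTTcagcTGc
Klf10: CAcACaGGtgagaagaagTTtgccTGt
Klf11: CAcACgGGagagaagaagTTtgtgTGt

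Over the whole block of 243 bases, identity in the 28 pairs of genes ranged from 58.8% to 81.1%, with a median of 65.2%. The closest pair was *Klf6* and *Klf7* at 81.1%, followed by *Klf2* and *Klf4* at 78.2% and *Klf10* and *Klf11* at 76.1%. Close relatives in sequence were far apart in level, since the group means of *Klf6* were between 14.1 and 29.4 FPKM and those of *Klf7* between 1.22 and 1.84. The longest run of identical bases between the transcripts of any pair was 36 bases, for *Klf3* and *Klf13*. The read length was not used here, and how far reads from such runs were split between genes was not tested.

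All 8 genes were above 0 in all 9 libraries. In WT stage 2 cells the order of mean levels was *Klf2* at 26.5 ± 1.64 FPKM (SD, n = 3 here and below), *Klf13* at 20.7 ± 0.64, *Klf6* at 14.1 ± 1.06, *Klf10* at 10.9 ± 0.43, *Klf3* at 5.53 ± 1.21, *Klf4* at 1.85 ± 1.21, *Klf7* at 1.48 ± 0.45 and *Klf11* at 1.08 ± 0.41. The libraries of neighbours in this order overlapped only for *Klf4* with *Klf7* and *Klf7* with *Klf11*. In WT stage 3 cells *Klf6* at 29.4 ± 7.53 FPKM stood between *Klf2* at 34.9 ± 7.02 and *Klf13* at 25.6 ± 2.71, with overlap between *Klf2* and *Klf6* and between *Klf6* and *Klf13*, and *Klf3* at 10.5 ± 1.65 stood above *Klf10* at 6.74 ± 0.34 without overlap. In *Med23*-deficient stage 2 cells *Klf13* at 20.7 ± 1.37 FPKM, *Klf6* at 19.7 ± 3.18 and *Klf2* at 19.1 ± 4.56 could not be ranked, because the libraries of each neighbouring pair overlapped. There *Klf10* was at 9.31 ± 2.58 FPKM, *Klf3* at 2.98 ± 0.96, *Klf4* at 2.40 ± 0.59, *Klf7* at 1.22 ± 0.29 and *Klf11* at 0.41 ± 0.14, and of these neighbours only *Klf3* and *Klf4* overlapped. The summed level of the 8 genes was 82.2 ± 5.26 FPKM in WT stage 2, 113 ± 17.2 in WT stage 3 and 75.8 ± 3.46 in *Med23*-deficient stage 2 libraries.

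**Figure D1:**
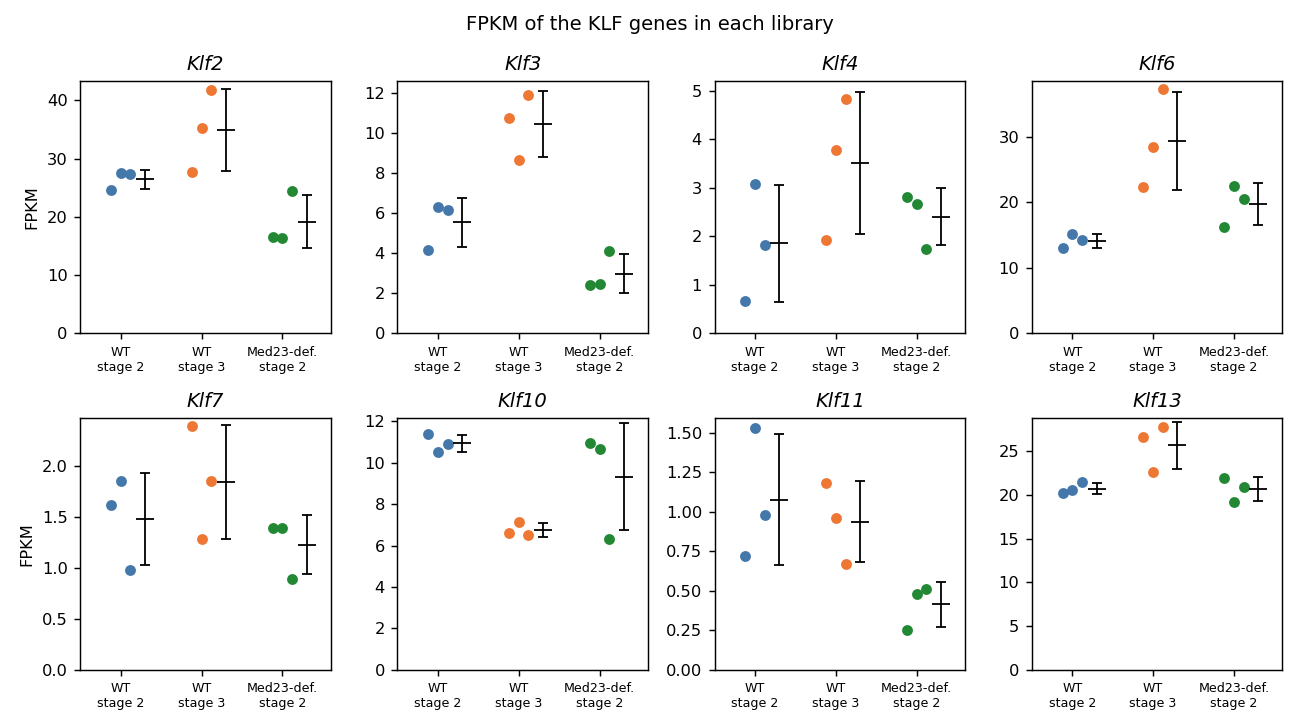
FPKM (vertical axes, each from 0) of the 8 KLF genes in the 9 libraries, with 1 panel per gene and the groups along the horizontal axis. The points are single libraries, the black marks the mean with its SD, and *Klf3* has no overlap between any of the 3 groups, with WT stage 3 libraries at 8.68 to 11.9 FPKM and *Med23*-deficient ones at 2.39 to 4.09.

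Some facts of the libraries bear on these levels. *Med23* itself had 5.51, 5.15 and 6.74 FPKM in WT stage 2, 7.14, 4.44 and 6.12 in WT stage 3 and 4.80, 3.60 and 3.92 in *Med23*-deficient stage 2 libraries, a log2 difference of -0.41 (limma, SE 0.18, adjusted p = 0.552) between the stage 2 groups, and since the value pools the deleted exons with the others it is no check of the deletion. The T cell markers *Cd3e*, *Cd3g*, *Cd3d*, *Trac*, *Trbc2* and *Zbtb16* summed to between 816 and 1209 FPKM in every library. *Klrb1c*, which encodes NK1.1, had 57.3 to 95.1 FPKM in WT stage 3 libraries and 7.65 to 26.2 in WT stage 2 libraries, against 2.61 to 4.6 in *Med23*-deficient ones. With *Tbx21*, *Klrd1*, *Il2rb* and *Ifng* added, stage 3 markers summed to 522.5 to 591 FPKM in WT stage 3, 164 to 198 in WT stage 2 and 140 to 206 in *Med23*-deficient libraries. *Klrd1* was also lower in *Med23*-deficient than in WT stage 2 libraries. *Tbx21* (34.9 to 43.6 against 20.4 to 37.2 FPKM), *Il2rb* and *Ifng* overlapped between these groups. The stage 2 markers *Il17rb*, *Gata3*, *Il4*, *Ccr7* and *Zbtb16* summed to 182 to 237 FPKM in WT stage 2, 63.9 to 74.7 in WT stage 3 and 235 to 288 in *Med23*-deficient libraries. The 6 double-positive thymocyte markers summed to 3.09 to 4.10 FPKM in WT stage 2, 2.89 to 4.99 in WT stage 3 and 0.95 to 3.70 in *Med23*-deficient libraries, and *Rag2* was at 0 in every WT stage 2 and *Ptcra* in every *Med23*-deficient library. The markers of thymic epithelium and endothelium summed to 8.51 to 9.52, 1.97 to 3.87 and 7.99 to 10.8 FPKM in these groups, of which *Pecam1* alone gave 8.31 to 9.52, 1.76 to 2.80 and 7.59 to 10.8. The B cell markers summed to at most 0.50 FPKM, the erythroid markers to at most 0.75 and the myeloid markers to at most 1.69. In such bulk libraries fewer cells of a type and less RNA per cell cannot be told apart, and the part of these markers in the KLF values was not tested.

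The passage from stage 2 to stage 3 was examined first, in WT cells. *Klf6* was 2.08 times as high in mean FPKM at stage 3, *Klf3* 1.89 times and *Klf2* 1.32 times, while *Klf10* at stage 3 was 0.617 times its stage 2 level. The study's thresholds of at least a 2-fold change on the log2(FPKM + 1) scale with an unadjusted p of at most 0.05 were passed by 0 of the 8 genes, against 3.6% of the 20689 genes tested, and 0.05 after Benjamini-Hochberg adjustment by 0, against 1.67% (limma). At the unadjusted p alone 4 genes passed, against 13.2% of all genes tested, with 3 higher, against 5.44%, and 1 lower, against 7.79%. In the alternative fits, between 2 and 5 genes reached that p and at most 1 gene passed either of the other rules. The groups did not overlap for 5 of 8 genes, 4 of them higher and 1 lower at stage 3, where 17.8% of all genes tested did not overlap, 7.36% being higher and 10.4% lower. The median log2 difference of the 8 genes was 0.33, beside -0.05 for all genes tested with a mean of 1 FPKM or more.

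Among the growth and stress-linked members, *Klf6* had 13.0, 15.2 and 14.2 FPKM in the WT stage 2 libraries and 22.4, 28.5 and 37.3 in the WT stage 3 libraries. All 3 stage 3 libraries lay above all stage 2 libraries, and the stage 3 libraries were spread more widely. The log2 difference was 0.98 (SE 0.19, limma unadjusted p = 0.00213, adjusted p = 0.0786). This value lies so near the 2-fold threshold that the call turned with the processing, at 1.02 and 1.03 with smaller pseudocounts, at 1.06 on an upper quartile scale, at 1.03 without WT stage 2 replicate 2 and at 1.15 without WT stage 3 replicate 1. Other settings lowered it, to 0.86 on the TPM scale and 0.80 without WT stage 3 replicate 3. In the Ballgown-style model it was 1.10 but not called (unadjusted p = 0.0575, adjusted p = 0.464). *Klf4* had 0.66, 3.07 and 1.81 FPKM at stage 2 and 1.92, 3.77 and 4.83 at stage 3, groups that overlapped. Its log2 difference was 0.70, with a 95% interval from -0.36 to 1.76 (limma adjusted p = 0.583). *Klf7* had 0.98 to 1.85 FPKM at stage 2 and 1.28 to 2.39 at stage 3, also overlapping, with an interval of the log2 difference from -0.48 to 0.87.

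*Klf3*, the CtBP-binding repressor, had 4.14, 6.31 and 6.15 FPKM in WT stage 2 and 10.8, 8.68 and 11.9 in WT stage 3 libraries. Every stage 3 library was above every stage 2 library. The log2 difference was 0.82 (SE 0.20, limma unadjusted p = 0.00638, adjusted p = 0.137). *Klf2*, the factor of T cell quiescence and thymic exit, had 24.6, 27.5 and 27.4 FPKM at stage 2 and 27.8, 35.2 and 41.8 at stage 3. The groups did not overlap, but the lowest stage 3 library was only just above the highest stage 2 library. The log2 difference of *Klf2* was 0.37 (SE 0.16, limma unadjusted p = 0.0570, adjusted p = 0.401).

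The TGF-beta-induced *Klf10* went the other way. It had 11.4, 10.5 and 10.9 FPKM in WT stage 2 and 6.59, 7.13 and 6.50 in WT stage 3 libraries, with close replicates in both groups and no overlap. The log2 difference of -0.62 (SE 0.11, limma unadjusted p = 0.00131) had the smallest p of the 8 genes and an adjusted p of 0.0613. With 1 library left out its adjusted p was 0.134 to 0.195 (limma). Over the other settings it ranged from 0.0313, without the mean-variance trend, to 0.186, with a replicate block. Its relative *Klf11* had 0.72, 1.53 and 0.98 FPKM at stage 2 and 1.18, 0.96 and 0.67 at stage 3. These ranges overlapped, and the log2 difference had a 95% interval from -0.67 to 0.49. *Klf13*, the *Ccl5*-binding factor, had 20.2, 20.5 and 21.4 FPKM at stage 2 and 26.6, 22.6 and 27.7 at stage 3. The groups did not overlap, and the log2 difference was 0.29 (SE 0.10, limma unadjusted p = 0.0312, adjusted p = 0.299).

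**Figure D2:**
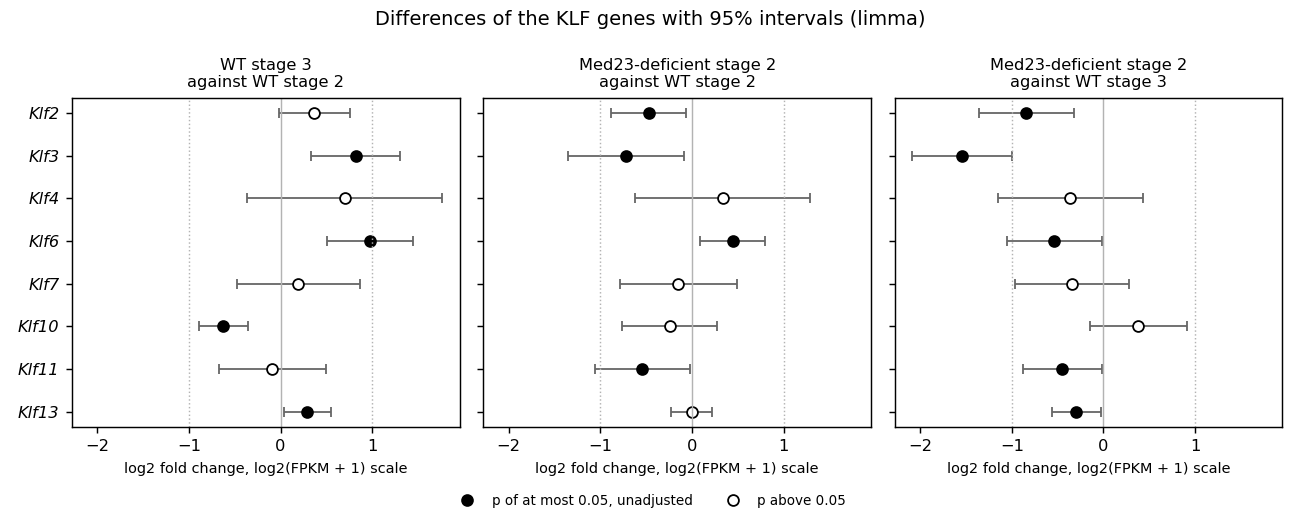
Log2 differences of the 8 KLF genes on the log2(FPKM + 1) scale (horizontal axes) in the 3 comparisons, with bars for the 95% interval of the limma fit. Filled points have an unadjusted p of at most 0.05, dotted lines mark 2-fold differences, and the single point past a dotted line is *Klf3* at -1.54 in *Med23*-deficient stage 2 against WT stage 3 cells.

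Within stage 2, *Med23*-deficient cells were compared with WT cells to see which genes differ with the loss of this Mediator subunit at the same stage. *Klf3* in the *Med23*-deficient cells was 0.539 times its WT level in mean FPKM, *Klf2* 0.722 times and *Klf11* 0.384 times, while *Klf6* was 1.39 times as high and *Klf13* 0.998 times. At a 2-fold change with that p, 0 of 8 genes passed, against 2.11% of the 20674 tested, and at an adjusted p of at most 0.05 none did, 0 of 8, against 0.213% (limma). At the unadjusted p alone 4 genes passed, against 9.58% of all genes tested, with 3 lower, against 6.02%, and 1 higher, against 3.56%. The groups did not overlap for those 4 genes, against 14% of all genes tested, or 8.37% for lower and 5.63% for higher genes. Of the calls at the unadjusted p, 3 remained without WT stage 2 replicate 1, 1 without WT stage 2 replicate 2 or replicate 3, 1 without *Med23*-deficient replicate 1, 0 without replicate 2 and 2 without replicate 3, and other settings gave between 1 and 4. With 1 library left out the log2 differences of these genes stayed between -0.91 and -0.62 for *Klf3*, -0.65 and -0.38 for *Klf2*, 0.35 and 0.57 for *Klf6* and -0.67 and -0.39 for *Klf11*. The median log2 difference of the 8 genes was -0.20, beside -0.05 for genes with a mean of 1 FPKM or more.

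*Klf2* had 16.6, 16.4 and 24.4 FPKM without *Med23*, and 24.6, 27.5 and 27.4 in WT stage 2. The third *Med23*-deficient library was close to the WT range but stayed below it. The log2 difference was -0.47 (SE 0.17, limma unadjusted p = 0.0308, adjusted p = 0.437). *Klf3* had 2.39, 2.46 and 4.09 FPKM in *Med23*-deficient and 4.14, 6.31 and 6.15 in WT stage 2 libraries. The highest *Med23*-deficient library and the lowest WT library were almost level, and the other libraries were well apart. The log2 difference of *Klf3* was -0.72 (SE 0.26, limma unadjusted p = 0.0312, adjusted p = 0.437).

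*Klf6* had 16.2, 22.5 and 20.5 FPKM in *Med23*-deficient and 13.0, 15.2 and 14.2 in WT stage 2 libraries. All *Med23*-deficient libraries were above the WT libraries, so that *Klf6* was the only member higher without overlap in this comparison. The log2 difference was 0.44 (SE 0.14, limma unadjusted p = 0.0212, adjusted p = 0.387). *Klf4* had 2.81, 2.66 and 1.73 FPKM in *Med23*-deficient libraries and overlapped WT stage 2. Its log2 difference of 0.33, with a 95% interval from -0.62 to 1.29, came to -0.01 without WT stage 2 replicate 1, the library in which *Klf4* was at 0.66. *Klf7* had 1.39, 1.39 and 0.89 FPKM and overlapped WT stage 2 as well, with an interval from -0.79 to 0.49.

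Of the TGF-beta-induced pair, *Klf11* had 0.25, 0.48 and 0.51 FPKM in *Med23*-deficient and 0.72, 1.53 and 0.98 in WT stage 2 libraries. The groups did not overlap, at levels among the lowest of the family. The log2 difference was -0.54 (SE 0.21, limma unadjusted p = 0.0434, adjusted p = 0.493), and with pseudocounts of 0.1 and 0.01 in place of 1 it was -1.18 and -1.36 (limma unadjusted p = 0.102 and 0.115), no longer past the unadjusted p. *Klf10* had 10.9, 10.7 and 6.33 FPKM in *Med23*-deficient libraries, a pair of libraries within the WT stage 2 range and 1 below it, with an interval of the log2 difference from -0.76 to 0.27. *Klf13* had 21.9, 19.2 and 21.0 FPKM, overlapping WT stage 2 on both sides, and its log2 difference of 0.00 had the narrowest interval of the family, from -0.22 to 0.22.

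Against WT stage 3, *Med23*-deficient stage 2 cells differ in both genotype and stage, which this comparison alone cannot tell apart. It shares its libraries with the comparisons above, which give the genotype at stage 2 and the stage in WT cells. In those, the log2 differences of *Klf3* were -0.72 and 0.82, neither past the fold and p thresholds in the main fits. *Klf3* fell, to 0.285 times its WT stage 3 level in mean FPKM, and alone of the 8 genes passed both fold and unadjusted p, against 2.86% of the 20846 tested, and the adjusted p, against 1.33% (limma). The libraries at 2.39, 2.46 and 4.09 FPKM were all below those at 10.8, 8.68 and 11.9, and the log2 difference was -1.54 (SE 0.22, limma unadjusted p = 0.000437, adjusted p = 0.0406). With 1 library left out, the difference stayed between -1.44 and -1.73 and past the fold and p thresholds. The adjusted p was 0.0397 without *Med23*-deficient replicate 3 and between 0.106 and 0.163 without each of the other 5 libraries, and over the other settings it ranged from 0.0120 to 0.204.

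*Klf2* had 16.6, 16.4 and 24.4 FPKM in *Med23*-deficient and 27.8, 35.2 and 41.8 in WT stage 3 libraries, without overlap. The log2 difference was -0.84 (SE 0.21, limma unadjusted p = 0.00719, adjusted p = 0.192), and it passed the 2-fold threshold at -1.02 without *Med23*-deficient replicate 3. *Klf13* and *Klf11* were also lower without overlap, with log2 differences of -0.30 and -0.45 (limma adjusted p = 0.424 and 0.457). *Klf6* was 0.671 times its stage 3 level, but the highest *Med23*-deficient library, at 22.5 FPKM, lay just above the lowest stage 3 library, at 22.4. Its log2 difference was -0.54 (limma adjusted p = 0.466), and *Klf4*, *Klf7* and *Klf10* overlapped between these groups, with *Klf10* higher by 0.38 and a 95% interval from -0.15 to 0.91. In all, 5 of 8 genes had an unadjusted p of at most 0.05, all lower, against 4.89% of genes lower and 10.2% in either direction, and 4 of 8 were lower without overlap, against 6.75% and 14.2%. Between 2 and 5 genes reached that p in the other fits, 3 of them without any one of the 6 libraries. The median log2 difference of the 8 genes was -0.41, beside 0.00 for genes with a mean of 1 FPKM or more.

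**Figure D3:**
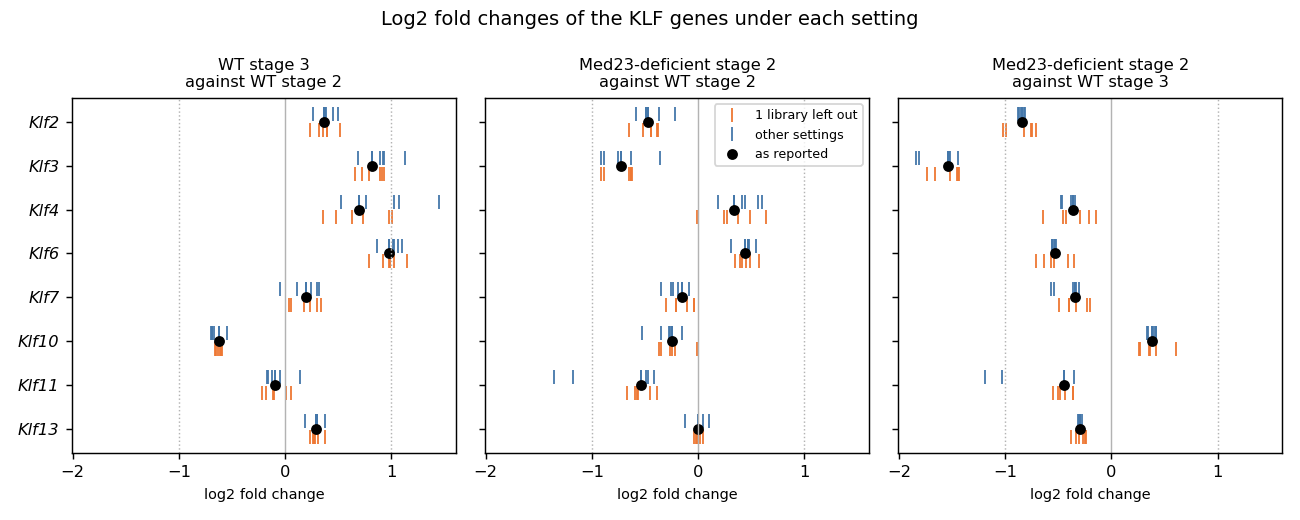
Log2 fold changes of the 8 KLF genes (horizontal axes) in the 3 comparisons as reported (black points), with 1 library left out (orange ticks) and under the other settings (blue ticks), where dotted lines mark 2-fold changes. *Klf3* in *Med23*-deficient stage 2 against WT stage 3 cells stays below -1 at every tick, between -1.44 and -1.84, and *Klf6* in WT stage 3 against WT stage 2 cells lies on both sides of 1.

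The starts of the genes with the largest range of group means, *Klf3* at 1.54 on the log2(FPKM + 1) scale, *Klf6* at 0.98 and *Klf2* at 0.84, are shown for the letters that precede them. RefSeq (GRCm38.p6) held a promoter of 250 bases before to 50 bases after the start for 7 of the 8 genes, all but *Klf10*, and only the bases before the annotated gene are printed. Capitals mark GGGCGG, the GC box core that Sp and KLF proteins bind, and in *Klf2* also the MEF2 box.

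Klf2 (chr8:72318812-72319032, + strand): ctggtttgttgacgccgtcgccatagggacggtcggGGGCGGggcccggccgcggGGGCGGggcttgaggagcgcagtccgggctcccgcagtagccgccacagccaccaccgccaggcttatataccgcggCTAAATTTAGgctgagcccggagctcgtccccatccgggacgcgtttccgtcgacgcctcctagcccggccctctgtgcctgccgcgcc
Klf3 (chr5:64803271-64803387, + strand): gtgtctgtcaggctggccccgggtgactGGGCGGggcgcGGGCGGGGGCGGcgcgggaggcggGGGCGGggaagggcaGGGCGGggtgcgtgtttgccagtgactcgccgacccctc
Klf6 (chr13:5861239-5861481, + strand): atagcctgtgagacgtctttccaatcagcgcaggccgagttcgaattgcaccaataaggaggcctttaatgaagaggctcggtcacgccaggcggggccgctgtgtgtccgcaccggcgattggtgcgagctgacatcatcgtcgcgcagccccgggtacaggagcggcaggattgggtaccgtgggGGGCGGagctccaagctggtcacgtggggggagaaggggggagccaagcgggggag

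GGGCGG was found on either strand in the promoters of 7 of 7 KLF genes, against 35.7% of 32851 promoters of the same length, with between 1 match in *Klf6* and *Klf7* and 6 in *Klf3*, some overlapping. CACCC was found in 4 of 7, *Klf2*, *Klf3*, *Klf7* and *Klf13*, against 57.5% of all promoters. The MEF2 box, the binding motif of the factors through which ERK5 drives *Klf2*, was found in *Klf2* alone, against 1.86% of all promoters. The AP-1 motif TGANTCA, present in 7.81% of all promoters, the CRE motif TGACGTCA in 1.79%, the forkhead motif TGTTTAC in 3.65% and the serum response CArG box in 1.63% were found in 0 of the 7. These matches describe the letters of the window only.

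The gene bodies lie at chr8:72319033-72321656 (+) for *Klf2* (ENSMUSG00000055148), chr5:64803388-64832901 (+) for *Klf3* (ENSMUSG00000029178), chr13:5861489-5870393 (+) for *Klf6* (ENSMUSG00000000078) and chr15:38294413-38300707 (-) for *Klf10* (ENSMUSG00000037465) on GRCm38. The others lie at chr4:55527143-55532466 (-) for *Klf4* (ENSMUSG00000003032), chr1:64029447-64122282 (-) for *Klf7* (ENSMUSG00000025959), chr12:24651371-24662774 (+) for *Klf11* (ENSMUSG00000020653) and chr7:63886351-63938915 (-) for *Klf13* (ENSMUSG00000052040). The annotation placed 7 other genes over *Klf3*, *Klf7* and *Klf13*, 5 of them on the opposite strand, and 4 of the 7 were listed in the table at no more than 3.64 FPKM. The highest was *C230096K16Rik*, which lies in an intron of *Klf3* on the same strand and had 1.5, 0.81 and 2.23 FPKM in WT stage 2, 1.26, 3.04 and 3.64 in WT stage 3 and 0.20, 0.53 and 1.24 in *Med23*-deficient libraries. Its log2 difference was -1.12 (limma, SE 0.39, adjusted p = 0.378) in *Med23*-deficient stage 2 against WT stage 3, and how reads were shared between it and *Klf3* was not tested.

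The genes with profiles nearest to those of *Klf3*, *Klf6* and *Klf2* were sought among 5692 genes with a mean of at least 5 FPKM, by the root mean square difference of log2(FPKM + 1) over the 9 libraries after centring each gene on its own mean. Nearest to *Klf3* were *Dock5*, an activator of Rac, at a difference of 0.15, *Ms4a4b*, a membrane protein of T cells, at 0.18 and *Ccdc102a* at 0.18. The means of *Dock5* were 4.83, 8.93 and 2.74 FPKM in WT stage 2, in WT stage 3 and in *Med23*-deficient libraries, close to the 5.53, 10.5 and 2.98 of *Klf3*. Nearest to *Klf6* were *Ssh2*, a cofilin phosphatase, at 0.18, *Nbeal2* at 0.18 and *Runx3*, a transcription factor of cytotoxic T cells, at 0.19. *Runx3* had means of 42.1, 77.0 and 53.6 FPKM, in the same order of groups as *Klf6*. Nearest to *Klf2* were *Il7r*, the receptor chain for the survival cytokine IL-7, at 0.13, *Kif13b* at 0.15 and *Ostf1* at 0.16. *Il7r* had means of 152, 187 and 113 FPKM.

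**Figure D4:**
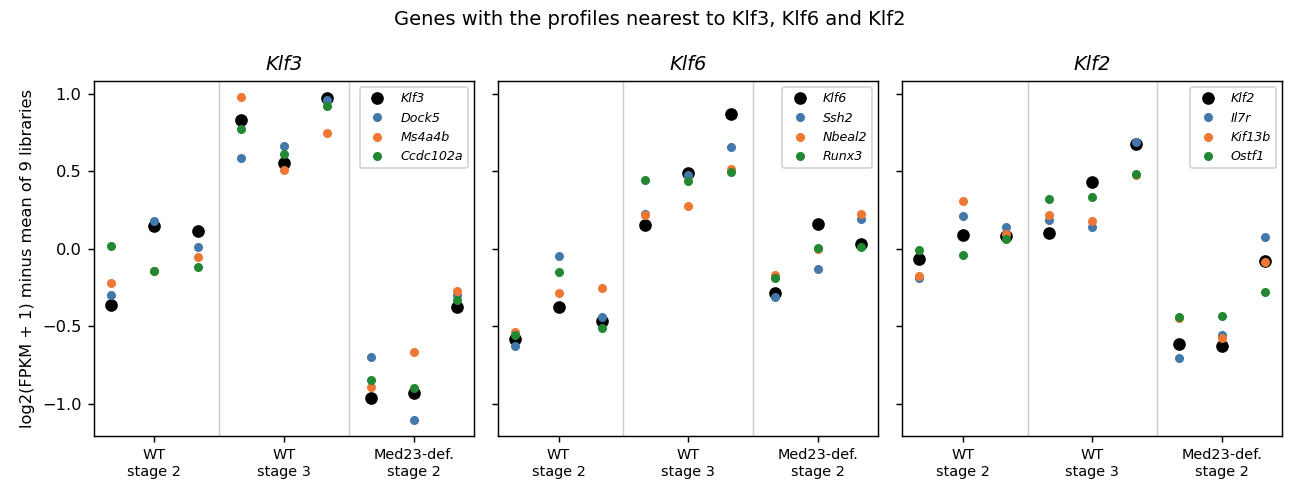
Profiles of *Klf3*, *Klf6* and *Klf2* (black points) and of the 3 genes nearest to each (coloured points) in the 9 libraries, as log2(FPKM + 1) minus the gene's own mean on the vertical axis and the libraries by group on the horizontal axis. *Dock5* follows *Klf3* with a root mean square difference of 0.15, being high in WT stage 3 and low in *Med23*-deficient libraries.

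Of 9 other KLF genes, 5 were in the table and 0 passed the fold and p thresholds in any of the 3 comparisons, 2 having an unadjusted p of at most 0.05 (*Klf8* and *Klf16*, both lower in WT stage 3 than in WT stage 2). The most abundant were *Klf9*, at 2.38 to 8.66 FPKM over the 9 libraries, and *Klf16*, at 2.42 to 6.16, and their group means were above those of *Klf7* and *Klf11* in all 3 groups. Of 9 genes for the related Sp factors, 6 were in the table, and *Sp6* alone passed the thresholds. *Sp6*, known from epithelial and tooth development, had 0.78, 0.36 and 1.61 FPKM in WT stage 2, 0.00, 0.21 and 0.36 in WT stage 3 and 15.1, 17.0 and 12.5 in *Med23*-deficient libraries. It rose in *Med23*-deficient cells by 3.09 on the log2 scale against WT stage 2 (limma, SE 0.29, adjusted p = 0.0309) and by 3.74 against WT stage 3 (adjusted p = 0.00276). No KLF gene differed by as much in any comparison, and *Sp1* and *Sp3*, the broadly expressed Sp factors, were at 8.59 to 25.1 and 19.6 to 31.9 FPKM over all libraries.

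Among 7 genes known to drive *Klf2*, 0 passed the fold and p thresholds in any comparison. *Foxo1*, which activates *Klf2* in resting T cells, had 10.4, 8.43 and 10.6 FPKM in WT stage 2, 4.64, 7.02 and 6.84 in WT stage 3 and 6.18, 6.02 and 5.04 in *Med23*-deficient libraries. It was thus lower without overlap in both other groups than in WT stage 2, with a limma unadjusted p of 0.0186 and 0.00423 (adjusted p = 0.235 and 0.205). *Foxo3* had 12.5 to 17.5 FPKM in WT stage 2, 21.6 to 25.6 in WT stage 3 and 19.3 to 22.2 in *Med23*-deficient libraries, higher without overlap in both (limma unadjusted p = 0.00642 and 0.0306, adjusted p = 0.137 and 0.437). Of 3 ubiquitin ligases and 9 cofactors of KLF proteins, 0 passed the thresholds in any comparison. At the unadjusted p, 2 cofactors were lower and 0 higher in *Med23*-deficient against WT stage 2, *Hdac1* and *Hdac2*, both without overlap. Their log2 differences were -0.44 and -0.42 (limma unadjusted p = 0.00503 and 0.0211, adjusted p = 0.214 and 0.386). *Fbxw7*, the ligase subunit that turns over KLF2, had a log2 difference of -0.64 in WT stage 3 against WT stage 2 (limma unadjusted p = 0.00650, adjusted p = 0.137).

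Of 3 genes of KLF2-controlled trafficking, 2 passed the thresholds in WT stage 3 against WT stage 2, 0 in *Med23*-deficient against WT stage 2 (limma; 2 at the unadjusted p) and 1 in *Med23*-deficient stage 2 against WT stage 3. *S1pr1*, the receptor for thymic exit and a direct KLF2 target, had 20.4, 11.0 and 13.7 FPKM in WT stage 2, 3.27, 1.38 and 2.41 in WT stage 3 and 9.36, 7.70 and 10.1 in *Med23*-deficient libraries. It fell by 2.25 on the log2 scale from WT stage 2 to stage 3 (limma, SE 0.31, adjusted p = 0.0343), the comparison in which *Klf2* itself was 1.32 times as high, and was higher by 1.62 in *Med23*-deficient stage 2 than in WT stage 3 (adjusted p = 0.0536), where the log2 difference of *Klf2* was -0.84. In *Med23*-deficient against WT stage 2 *S1pr1* was lower without overlap, at a log2 difference of -0.64 (limma adjusted p = 0.460), beside -0.47 for *Klf2*. *Cd69*, whose product antagonises S1PR1, had 1.72, 4.69 and 3.40 FPKM in WT stage 2 and 9.21, 7.87 and 15.9 in WT stage 3, which is 3.37 times the mean and past the thresholds (limma, adjusted p = 0.135). *Itgb7*, an integrin chain also controlled by KLF2, had 60.2 to 82.5 FPKM in the 9 libraries and did not pass. It was higher without overlap in *Med23*-deficient than in WT stage 2 cells, by 0.22 (limma unadjusted p = 0.0420, adjusted p = 0.489). Against WT stage 3 it was higher by 0.31, again without overlap (limma unadjusted p = 0.00673, adjusted p = 0.184). *Klf2* was lower in both of these comparisons.

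Of 3 genes tied to the innate-like T cells of KLF2-deficient mice, *Zbtb16*, *Il4* and *Eomes*, all but *Eomes* passed the thresholds in WT stage 3 against WT stage 2. *Zbtb16*, which encodes PLZF, fell by 1.85 on the log2 scale from WT stage 2 to stage 3 (limma, SE 0.17, adjusted p = 0.0122), and *Il4* was 3.57 times as high at stage 2 (log2 difference -1.69, SE 0.29, limma adjusted p = 0.0580). Both are also on the list of stage 2 markers, and both were higher in *Med23*-deficient stage 2 than in WT stage 3, by 1.48 and 2.17. In *Med23*-deficient against WT stage 2 they went opposite ways. There *Il4* was higher without overlap, by 0.48 (limma unadjusted p = 0.0385, adjusted p = 0.477). *Zbtb16* had a log2 difference of -0.37, with overlap (limma unadjusted p = 0.0400, adjusted p = 0.483). *Ccl5*, the chemokine gene bound by KLF13, had 4.20, 10.5 and 7.44 FPKM in WT stage 2, 41.4, 32.1 and 25.0 in WT stage 3 and 3.58, 4.85 and 4.95 in *Med23*-deficient libraries. It rose by 2.06 from WT stage 2 to stage 3 (limma, SE 0.33, adjusted p = 0.0481), where *Klf13* was higher by 0.29, and had a log2 difference of -2.61 in *Med23*-deficient stage 2 against WT stage 3 (adjusted p = 0.00844), where that of *Klf13* was -0.30. In *Med23*-deficient against WT stage 2 the log2 difference of *Ccl5* was -0.56 (limma adjusted p = 0.663), beside 0.00 for *Klf13*. Of 7 TGF-beta signalling genes 0 passed the thresholds in any comparison. *Smad3* alone of them reached an unadjusted p of at most 0.05 (limma). It was higher without overlap in *Med23*-deficient cells, by 0.39 against WT stage 2 (limma adjusted p = 0.219) and by 0.41 against WT stage 3 (limma adjusted p = 0.214). Of 4 cell cycle genes tied to KLF4 and KLF6 only *Ccnb1* passed, in WT stage 3 against WT stage 2. It had 0.62, 1.57 and 1.55 FPKM in WT stage 2, 0.00, 0.00 and 0.11 in WT stage 3 and 0.00, 0.10 and 0.21 in *Med23*-deficient libraries. The last were lower than WT stage 2 without overlap at -0.999 (limma adjusted p = 0.209), just short of 2-fold.

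**Figure D5:**
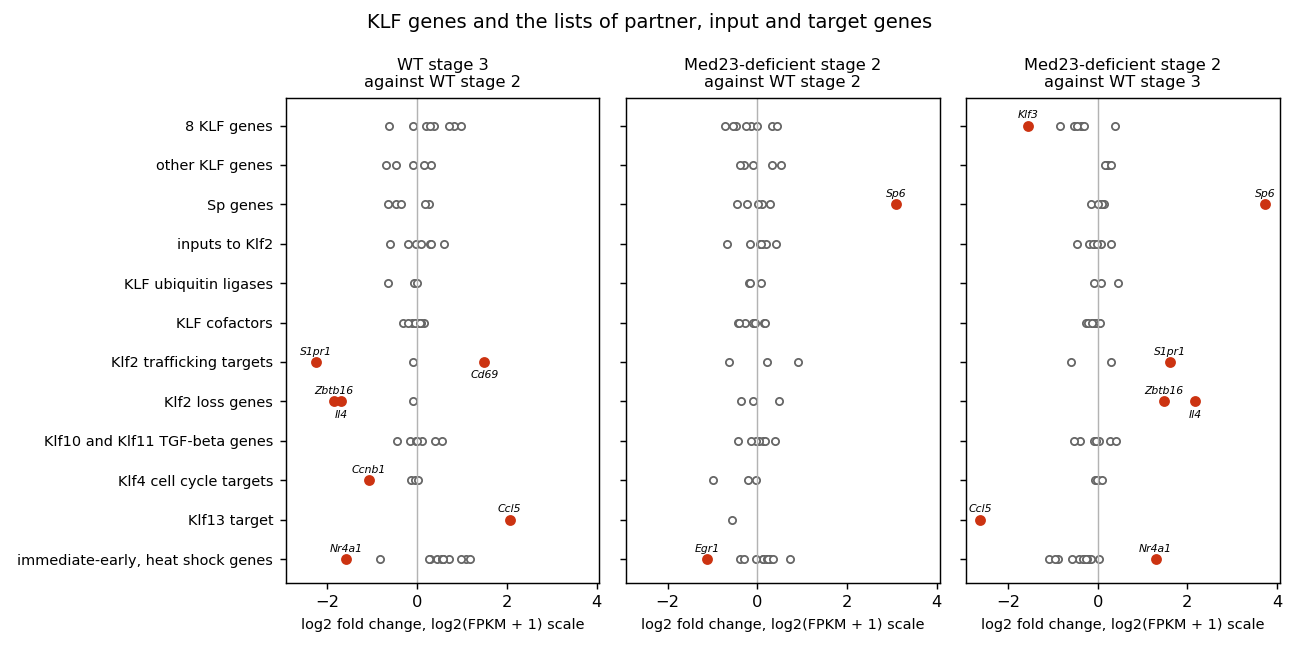
Log2 differences of the KLF genes and of the genes on each related list (points, horizontal axes) in the 3 comparisons, filled and named where past the fold and p thresholds. The 8 KLF genes lie between -1.54 and 0.98, while *Sp6* reaches 3.09 and 3.74 and *S1pr1* and *Ccl5* lie beyond 2 in size in WT stage 3 against WT stage 2.

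Several KLF genes respond within minutes to stimulation or tissue handling, as the classical immediate-early genes do. The 13 immediate-early and heat shock genes listed summed to 322, 445 and 308 FPKM in WT stage 2, to 422, 573 and 531 in WT stage 3 and to 316, 503 and 346 in *Med23*-deficient libraries, and 11 of 13 were higher in WT stage 3 than in WT stage 2, where 9695 of all 20689 genes tested were higher. At an unadjusted p of at most 0.05 there was 1 higher gene among them, *Btg2*, and 2 lower genes, *Egr1* and *Nr4a1* (limma). The lowest sum of WT stage 3 was below the highest of WT stage 2. *Klf4* was highest in the replicate with the highest sum in WT stage 2 but not in the other groups, and *Klf6* was highest in the replicate with the highest sum in WT stage 2 and *Med23*-deficient cells but not in WT stage 3. *Nr4a1*, which T cell receptor signals induce, had 7.95, 11.8 and 7.79 FPKM in WT stage 2 and 0.84, 3.40 and 3.60 in WT stage 3, and passed the thresholds at a log2 difference of -1.59 (limma adjusted p = 0.148). In *Med23*-deficient libraries it had 7.70, 8.45 and 5.66 FPKM, past the thresholds against WT stage 3 at 1.29. *Egr1* had 32.8, 27.0 and 24.9 FPKM in WT stage 2 and 15.7, 14.4 and 8.27 in *Med23*-deficient libraries, past the thresholds at -1.12 (limma, SE 0.25, adjusted p = 0.199). The part of this response in the levels of *Klf6*, *Klf2* and *Klf4* was not tested.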

How the data were processed

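RNA was sequenced from 9 libraries of thymic iNKT cells, 3 per group. According to the study's methods and processing notes, the authors made stranded total RNA libraries from small inputs, trimmed reads with Trimmomatic 0.36, aligned them to mm10 with HISAT2, kept reads hitting at most 2 loci and quantified GENCODE vM12 genes with StringTie. The deposited values are FPKM per gene and library, rounded to 2 decimals. Without counts in the table, sequencing depth is unknown and intervals for counting error are not given. Between 15584 and 17333 genes were above 0 per library, and 1 non-coding gene, *Gm23935*, held 62.2% to 71.9% of the summed FPKM, so levels on the TPM scale are shares that this gene can move. Because FPKM is divided by length, the gene's share of fragments is unknown, and its effect on the FPKM levels was not tested.

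Each comparison used limma 3.58.1 (R 4.3.3; lmFit, eBayes with trend) on log2(FPKM + 1) of its 6 libraries and all genes above 0 in at least 1 of them, with p adjusted over all genes tested. A fold change on this scale understates the change of low genes. The calling thresholds are those of the study, whose own tests used Ballgown. An exact permutation test of 3 against 3 libraries cannot give a p below 0.10 and was not used. The script was tested on simulated data. Figures were drawn with Python 3.11.15 and matplotlib 3.10.9.

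The members and gene lists were chosen with earlier results of these data known. Genes named are all members, *Med23*, the list genes past the fold and p thresholds and the 3 nearest profiles of the 3 members with the widest range. Other genes (*Klf8*, *Klf9*, *Klf16*, *Sp1*, *Sp3*, *Foxo1*, *Foxo3*, *Fbxw7*, *Hdac1*, *Hdac2*, *Itgb7*, *Eomes*, *Smad3*, *Btg2* and *C230096K16Rik*) were named after their values were seen. Cell markers were looked at, not tested. A pair of listed genes is not reported here. The alternatives were pseudocounts of 0.1 and 0.01, a mean of at least 1 FPKM, TPM and upper quartile scales, limma without trend, a Ballgown-style linear model with a library-size covariate, all 9 libraries in 1 fit, a replicate block and each library left out.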

Additional observations from a re-analysis of the deposited data

How the results depend on the processing

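Of 358 values of single KLF genes under another setting, 342 kept their direction and their side of the fold and p thresholds, 7 newly passed them and 9 changed sign. In WT stage 3 against WT stage 2, the number of genes passing fold and p went from 0 to 1 with pseudocounts of 0.1 and 0.01, on the upper quartile scale (*Klf6* in these) and in the Ballgown-style model (*Klf3* at 1.13). With 1 library left out it was 0 to 1. The count past the adjusted p went from 0 to 1 with a mean of at least 1 FPKM and with all 9 libraries (*Klf6*) and without the trend (*Klf10*), and the count at the unadjusted p from 4 to 2 in the Ballgown-style model. In *Med23*-deficient against WT stage 2, the count at the unadjusted p went from 4 to 2 on the upper quartile scale, to 1 in the Ballgown-style model and to between 0 and 3 with 1 library left out. In *Med23*-deficient stage 2 against WT stage 3, it went from 5 to 3 with a pseudocount of 0.01, a mean of at least 1 FPKM and the upper quartile scale, to 2 in the Ballgown-style model and to 3 with any library left out, and the count past the adjusted p went from 1 to 0 on the upper quartile scale, in the Ballgown-style model and with the replicate block, and was 0 to 1 with 1 library left out. There the number of genes passing fold and p was 1 to 2 with 1 library left out, *Klf2* being added. The cause was not tested. In WT stage 3 against WT stage 2 the sign turned in the Ballgown-style model for *Klf7* (-0.043) and *Klf11* (0.14) and with a library left out for *Klf11* (-0.22 to 0.061). In *Med23*-deficient against WT stage 2 it turned for *Klf13* on the upper quartile scale (0.097), in the Ballgown-style model (0.044) and with a library left out (-0.044 to 0.046), and for *Klf4* with a library left out (-0.0076 to 0.64). The median of genes with a mean of at least 1 FPKM moved from -0.05 to -0.13 and from -0.05 to -0.15 on the TPM scale in the comparisons with WT stage 2.

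Libraries of the same replicate number in different groups had deviations from their group means that correlated at 0.00 to 0.27 over 11778 genes. The replicate 3 libraries correlated best with one another, at 0.14 to 0.27. With replicates 1 and 2 of other groups they correlated negatively, at -0.17 to -0.04. What the replicate 3 libraries share was not tested. Among replicates 1 and 2 not every library correlated best with its own number, so the number was not taken to pair all libraries. With a replicate block, 19, 0 and 42 genes of all passed the adjusted p in the 3 comparisons in the order above, against 346, 44 and 278 without it. *Klf3* in *Med23*-deficient stage 2 against WT stage 3 had a limma adjusted p of 0.101 with the block, and the other counts of KLF genes past a threshold stayed within 1.5 times. FPKM without read counts limit what can be said of *Klf4*, *Klf7* and *Klf11*, whose group means were at or under 3.51 FPKM.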
